A study of Mus musculus with 5 samples.

Results

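Isolated H3K36me3 islands of L-proline cells are stretches of chromatin called as enriched for trimethylated lysine 36 of histone H3. The call was made in mouse embryonic stem cells (ESCs) given L-proline, with no such call nearby in untreated ESCs. They were taken from lists of enriched regions, called islands, as the autosomal islands of the L-proline library with no untreated H3K36me3 island within 10 kb and no overlap with an untreated H3K9me3 island. The rule found 1572 islands among 16363 autosomal H3K36me3 islands of L-proline cells, or 9.61%, and among 73415 islands in the 4 lists of the series. Without the condition on H3K9me3 it would have found 2098, or 12.8%. Members were chosen by the called islands of both H3K36me3 libraries and of the ESC H3K9me3 library, so these 2 shares, and the widths and tags below, are a description.

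All libraries came from wild-type TBV2 cells, an ESC line of strain 129/SvP that was kept with leukemia inhibitory factor in medium lacking the non essential amino acids. The cells were plated sparsely on gelatin without feeders for 5 days, either with no addition (ESCs below) or with 500 µM L-proline, which gives the L-proline-induced cells (PiCs). Chromatin immunoprecipitation with sequencing was done once per condition for H3K36me3 and once for H3K9me3, and 1 input library of untreated cells was not analysed here. With 1 library per group, the effect of L-proline and the difference between 2 libraries cannot be told apart, and no test between conditions was possible.

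H3K36me3 is laid down by SETD2, an enzyme that travels with elongating RNA polymerase, so the mark covers the bodies of transcribed genes and usually rises towards their ends. It is read by proteins with a PWWP domain, among them the DNA methyltransferase DNMT3B. H3K9me3 is written by SETDB1 and the SUV39H enzymes, is bound by HP1 proteins and marks silenced repeats and heterochromatin. The marks are mostly found in different places, with known exceptions such as zinc finger gene clusters and imprinted regions. Positions are on mouse build mm9. No gene annotation or genome sequence of that build was used here, so no gene is named, no sequence is shown and the identity of the cells was not checked against marker genes.

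The autosomal islands held 15594739 tags in the PiC H3K36me3 list and 25663212 in the ESC H3K36me3 list. For H3K9me3 the sums were 3294772 in PiCs and 1440142 in ESCs. A tag is a sequenced read placed in an island. The sums cover called islands alone, so library depth is unknown, and tags were not compared between lists as gains or losses. The isolated islands therefore came from the H3K36me3 list with fewer tags. Intervals in brackets are exact 95% binomial intervals over islands for shares, and 95% intervals from the ranked values for medians. They cover counting error only, since islands of 1 library are not replicates. They also take islands as independent, though many isolated islands lay in groups.

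The isolated islands were short and thin in tags. Their widths ran from 0.2 to 35.2 kb, with a median of 5.2 kb and with 25% of them at or below 3.4 kb and 25% at or above 7.4 kb. Together they covered 9.50 Mb, which was 4.21% of the sequence under autosomal PiC H3K36me3, and held 360573 tags, or 2.31% of the tags. A single island held from 51 to 2034 tags, with a median of 183 that has a Poisson counting interval of 157.4 to 211.5. Read per length, the median was 37.2 tags per kb. By contrast, the 11786 PiC islands that overlapped an ESC H3K36me3 island, called overlapping islands here and likewise free of ESC H3K9me3, had a median width of 10.4 kb and 52.2 tags per kb. A further 1067 PiC islands, called adjacent, did not overlap an ESC island but lay within 10 kb of one. Their medians of 4.8 kb and 38.9 tags per kb were near those of the isolated islands.

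**Figure D1:**
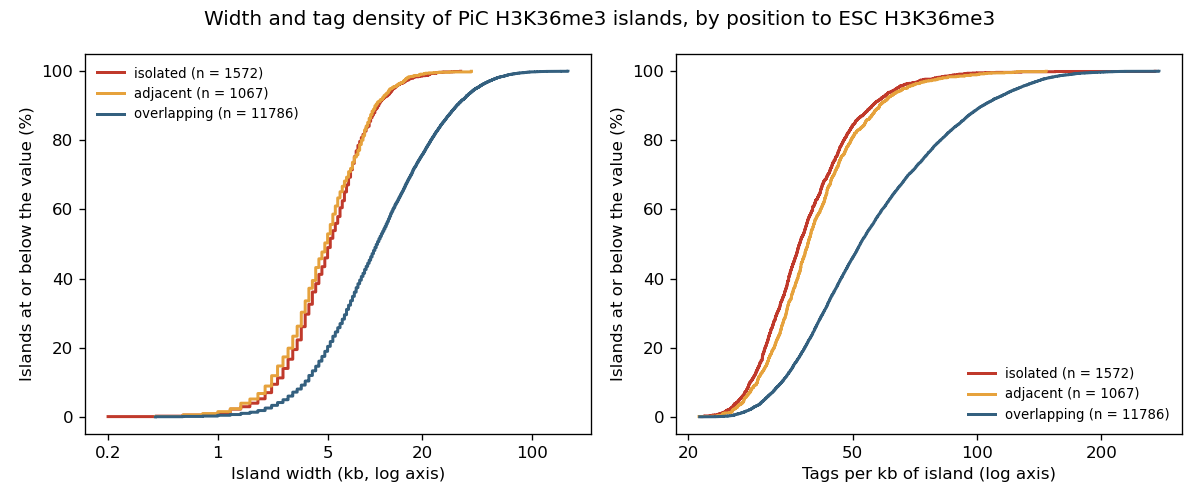
Cumulative share of PiC H3K36me3 islands, in percent, against island width in kb (left) and tags per kb (right), both on log axes, for isolated, adjacent and overlapping islands that lack ESC H3K9me3. The curves of isolated and adjacent islands run close together, with median widths of 5.2 and 4.8 kb, and lie to the left of the overlapping islands at 10.4 kb.

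Isolated islands filled the lower ranks of the PiC list. By tags, their median member stood at percentile 21.8 of all autosomal PiC islands, against percentile 57.6 for overlapping islands. The 10% of the list with the fewest tags held 24.4% of the isolated islands, and the 10% with the most held 0 of the 1572. Isolated islands also had fewer tags per kb at matched width, except under 2 kb, where medians of 64.2 in isolated islands (60.6 to 72.2) and 67.4 in overlapping ones (65 to 70) had intervals that met. Between 2 and 5 kb the median was 40.4 tags per kb in 641 isolated and 45 in 2019 overlapping islands. Between 5 and 10 kb it was 33.0 in 660 isolated and 43.2 in 3440 overlapping islands, between 10 and 20 kb it was 35.8 in 167 and 53.6 in 3237, and at 20 kb or more it was 40.5 in 22 and 69.6 in 2876. The gap between the classes was thus wider among broader islands. Isolated islands made up 22.3% of the compared PiC islands under 2 kb, 20.5% of those of 2 to 5 kb, 14.6% of those of 5 to 10 kb, 4.76% of those of 10 to 20 kb and 0.757% of those of 20 kb or more.

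How far these islands stood above the limit of the ESC list can be described, though not on a common scale. The smallest autosomal H3K36me3 island of the ESC list held 88 tags, and that of the PiC list held 49. Within their own width class, 938 of the isolated islands, or 59.7%, had at least as many PiC tags per kb as the lowest ESC island had ESC tags per kb. That was so for 32 of 82 islands under 2 kb, 310 of 641 of 2 to 5 kb, 417 of 660 of 5 to 10 kb, 157 of 167 of 10 to 20 kb and 22 of 22 of 20 kb or more. Each of these limits rests on a single ESC island. The same share was not counted for adjacent or overlapping PiC islands, so 59.7% cannot be called high or low. The part of tag yield and of the calling threshold in the absence of an ESC island was not tested.

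The 5 highest tag counts were all among the broadest members, but the tags per kb of these lay within the range of the other members. The 22 islands of 20 kb or more lay on 11 chromosomes, held 659 to 2034 tags and had 31.2 to 63.2 tags per kb. The widest spanned 35.2 kb on chromosome 4 at 98071401 to 98106600 and held 1437 tags, or 40.8 per kb. Its nearest ESC H3K36me3 island, 8.8 kb wide, ended 43.6 kb before it. Past its far edge lay 5 more isolated islands of 4 to 7 kb with 25.4 to 38 tags per kb, so that H3K36me3 of PiCs was strung over 112.8 kb where the ESC list had none.

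The isolated island with the most tags, 2034 or 63.2 per kb, was the second widest at 32.2 kb, on chromosome 3 at 51322601 to 51354800. On its left lay a 59.8 kb ESC island with 153.2 ESC tags per kb and a 4.4 kb ESC island that ended 23.4 kb away. Both of these had overlapping PiC islands, and a 2.6 kb PiC island with 115 tags lay between them, touching neither. At this place the lists thus differed between these ESC islands as well as past them.

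A member of 31.0 kb on chromosome 17, at 30876001 to 30907000, held 1639 tags or 52.9 per kb. It belonged to a long stretch that began with an 85.2 kb PiC island at 30766001 to 30851200, which was not a member because an ESC H3K9me3 island of 1.2 kb lay inside it. A further member of 22 kb with 50.9 tags per kb filled the space between them, leaving gaps of 1.2 and 1.6 kb, and members of 16.4 and 7.6 kb followed. The nearest ESC H3K36me3 island ended 129.8 kb before the 31.0 kb island. A 1.4 kb PiC H3K9me3 island lay within the 22 kb member, where the ESC H3K9me3 list had none.

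The fourth widest, 27.4 kb on chromosome 11 at 108784601 to 108812000, was alone. It held 1278 tags, or 46.6 per kb. The nearest ESC island was 315.2 kb away and the nearest other PiC island 413.8 kb away. The fifth, of 26.8 kb on chromosome 15 at 99903201 to 99930000, lay in the opposite setting. ESC H3K36me3 covered 45.2% of the sequence within 500 kb of it, the nearest ESC island stood 13.6 kb away, and its 31.2 tags per kb were at percentile 8.21 of the PiC list. Broad members were thus found in deserts of H3K36me3 and between densely marked regions alike.

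**Figure D2:**
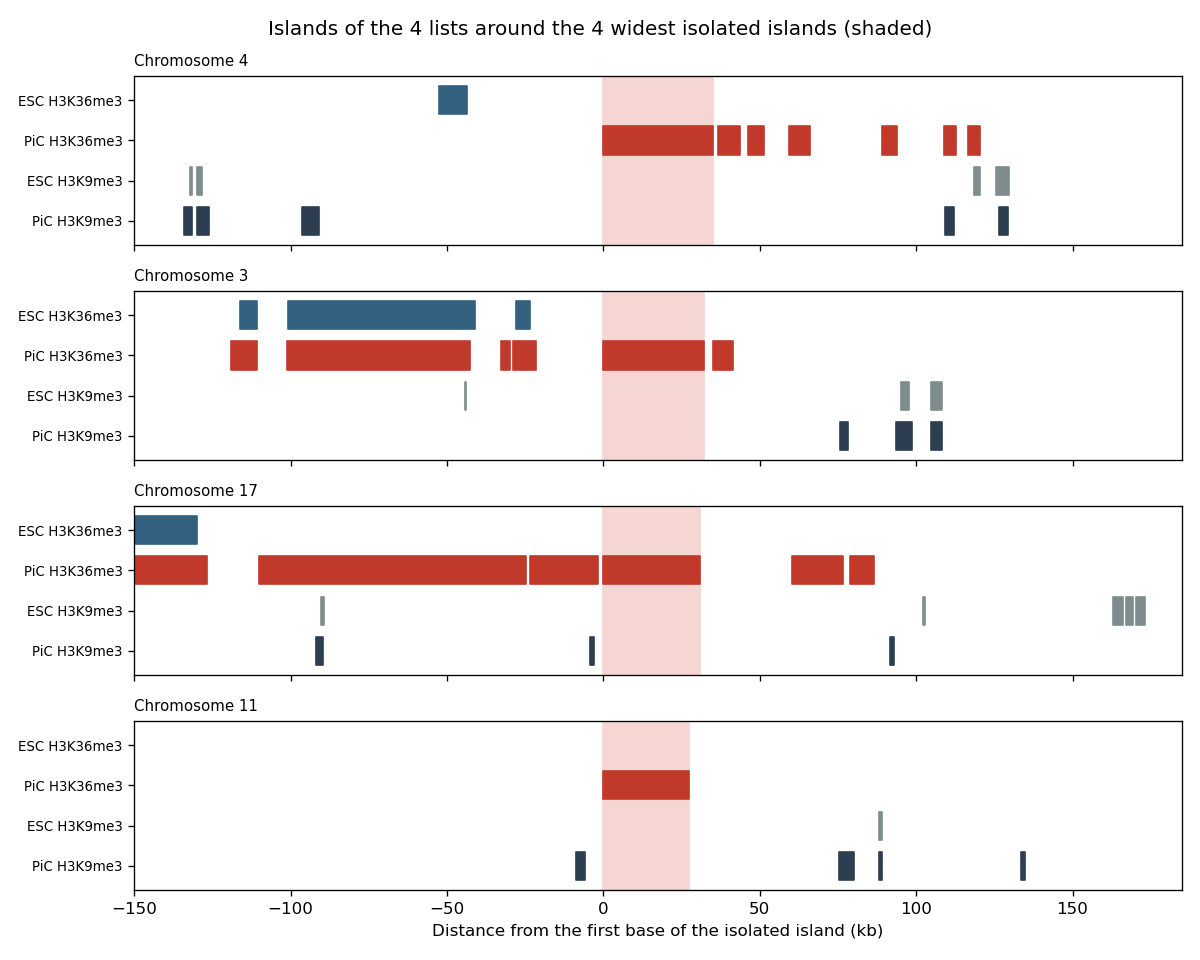
Islands of the 4 lists around the 4 widest isolated islands, each on its own chromosome, plotted by distance in kb from the first base of the isolated island (shaded); each bar is 1 island. On chromosomes 4 and 17 the shaded island is followed or flanked by further PiC H3K36me3 islands, and on chromosome 11 the 27.4 kb island has no H3K36me3 island of either list within the window.

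The remaining members with the 5 highest tag counts were not among the 5 widest. One of 25.2 kb on chromosome 9, at 72686401 to 72711600, held 1413 tags or 56.1 per kb, 87.2 kb from the nearest ESC island. One of 21.8 kb on chromosome 5, at 115881801 to 115903600, held 1372 tags or 62.9 per kb and lay 12.6 kb from an ESC island. In both regions ESC H3K36me3 was plentiful, covering 28.0% and 41.6% of the sequence within 500 kb.

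The highest tag densities were in small members. Among members of at least 2 kb, the densest was a 2.2 kb island on chromosome 17 at 17145201 to 17147400 with 244 tags, or 110.9 per kb, and it lay wholly under PiC H3K9me3. The next 4 were 2.2 to 2.8 kb wide, on chromosome 1 at 179377201, chromosome 3 at 145310201, chromosome 15 at 96556601 and chromosome 10 at 59412001, with 97.7, 94.6, 93.2 and 89.5 tags per kb. None of these 4 touched PiC H3K9me3. The 12 members under 1 kb held 51 to 77 tags each, which on their short length gave 72.5 to 270.0 per kb.

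Most isolated islands were not far from ESC H3K36me3, but a minority lay deep in sequence without a called ESC island. The gap to the nearest ESC island, which the rule sets above 10 kb, had a median of 36.4 kb, with 25% of members at or under 19.8 kb and 25% at or above 87.4 kb. It was 10 to 20 kb for 408 members, 20 to 50 kb for 532, 50 to 100 kb for 270, 100 to 200 kb for 179, 200 to 500 kb for 101 and over 500 kb for 82. The 3 widest members just inside it, with gaps of 10.2 kb, measured 11.2, 9.8 and 4.4 kb and had 30.4, 29.2 and 59.8 tags per kb. The 3 widest islands just outside it, with gaps of 10 kb, measured 19.2, 11.6 and 8.6 kb and had 35.3, 37.7 and 29.4 tags per kb.

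The most remote members named here were 0.4 to 5.4 kb wide. The farthest lay on chromosome 5 at 14239601 to 14243400, 5080 kb from any ESC H3K36me3 island, and was 3.8 kb wide with 127 tags. An island of 0.4 kb with 62 tags lay on the same chromosome at 14030201 to 14030600, at a gap of 4871 kb. The next were a 3.6 kb island on chromosome 1 at 112672801 (gap 3152 kb), a 0.4 kb island on chromosome 17 at 91830601 (2808 kb) and a 5.4 kb island on chromosome 3 at 72666201 (2646 kb). The members on chromosomes 1 and 3 touched PiC H3K9me3, over 16.7% and 66.7% of their length. The 82 members more than 500 kb from ESC H3K36me3 were spread over 17 chromosomes, with at most 13 on 1 of them, chromosome 3. Their median width was 3.8 kb, against 5.0 to 5.4 kb in the classes up to 200 kb and 4.6 kb between 200 and 500 kb. Broad islands were also found there, with 6 of the 82 at 10 kb or more, and the most remote member of 20 kb or more lay 2072 kb from ESC H3K36me3.

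PiC H3K9me3, which the rule did not use, lay on isolated H3K36me3 islands more often than on overlapping ones. Among all 14425 autosomal PiC H3K36me3 islands free of ESC H3K9me3, 2.8% touched a PiC H3K9me3 island by 1 bp or more. The share was 6.93% of isolated islands (109 of 1572, interval 5.73 to 8.30), 4.40% of adjacent islands (47 of 1067, 3.25 to 5.81) and 2.10% of overlapping islands (248 of 11786, 1.85 to 2.38). The interval of isolated islands lay wholly above that of overlapping islands, while those of isolated and adjacent islands met. No test was made, since each share came from 1 pair of libraries. With the 50% of each list that had the most tags the shares were 2.52% of isolated (1.68 to 3.62) and 1.15% of overlapping islands (0.899 to 1.46), and with islands on ESC H3K9me3 kept they were 24.6% (22.8 to 26.5) and 6.18% (5.77 to 6.60). The first of these settings also shortened the ESC lists, so most islands it counted as isolated were not members.

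Isolated islands had a higher share than overlapping ones in each of the 5 width classes, with separate intervals below 10 kb. In islands of 2 to 5 kb 8.89% of isolated (6.80 to 11.4) and 2.08% of overlapping islands (1.503 to 2.80) touched PiC H3K9me3. From 5 to 10 kb the shares were 4.85% (3.34 to 6.78) and 1.57% (1.18 to 2.04). Under 2 kb they were 12.2% (6.01 to 21.3) and 2.34% (0.763 to 5.37), and from 10 to 20 kb they were 5.39% (2.49 to 9.98) and 2.41% (1.91 to 2.998), where the intervals met. Of the 22 isolated islands of 20 kb or more, 1 touched PiC H3K9me3, or 4.55% (0.115 to 22.8), against 2.40% of overlapping islands (1.87 to 3.03). Adjacent islands, from the narrowest class to the broadest, touched it in 8.33% (3.12 to 17.3), 3.87% (2.31 to 6.05), 4.36% (2.60 to 6.80), 3.70% (1.02 to 9.21) and 11.1% (0.281 to 48.2, 1 of 9). Their intervals met those of isolated islands in 4 classes and were separate from 2 to 5 kb.

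The share also moved with the region. ESC H3K36me3 covered a median of 13.95% of the sequence within 500 kb of isolated islands, against 19.8% around overlapping and 20.3% around adjacent islands, an ordering that the rule itself favours. When the compared PiC islands were split into 4 equal parts by this cover, the part poorest in ESC H3K36me3 (cover up to 11.3%) held 625 isolated islands, of which 12% touched PiC H3K9me3 (9.56 to 14.8), against 8.60% of adjacent (5.26 to 13.1) and 3.08% of overlapping islands (2.47 to 3.80). In the richest part (cover from 28.7%) the shares were 0.922% of 217 isolated islands (0.112 to 3.29), 1.94% of adjacent (0.716 to 4.18) and 1.33% of overlapping ones (0.957 to 1.801). The intervals of isolated and overlapping islands were separate in the poorest part and met in the richest, those of isolated and adjacent islands met in both, and the difference between the parts was not tested. Median PiC H3K9me3 cover within 500 kb was 2.88%, 3.26% and 2.74% around isolated, adjacent and overlapping islands in the poorest part. In the richest it was 1.58%, 1.26% and 1.4%. The part of this cover in the shares touching PiC H3K9me3 was not tested. In the parts between, 4.91% (3.03 to 7.49) and 3.72% (1.93 to 6.40) of isolated islands touched it, against 5.43% (3.07 to 8.81) and 2.68% (1.08 to 5.45) of adjacent and 2.50% (1.96 to 3.13) and 1.62% (1.20 to 2.14) of overlapping ones. With region and width held together, 14.7% of 326 isolated islands under 5 kb in the poorest part touched PiC H3K9me3 (11.1 to 19.04), against 7.44% of 121 adjacent (3.46 to 13.7) and 3.33% of 571 overlapping islands (2.02 to 5.15). For islands of 5 kb or more there the shares were 9.03% (6.04 to 12.9), 10% (4.90 to 17.6) and 3.02% (2.34 to 3.83). Contact with PiC H3K9me3 was thus not particular to isolated islands among those that overlapped no ESC H3K36me3 island.

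**Figure D3:**
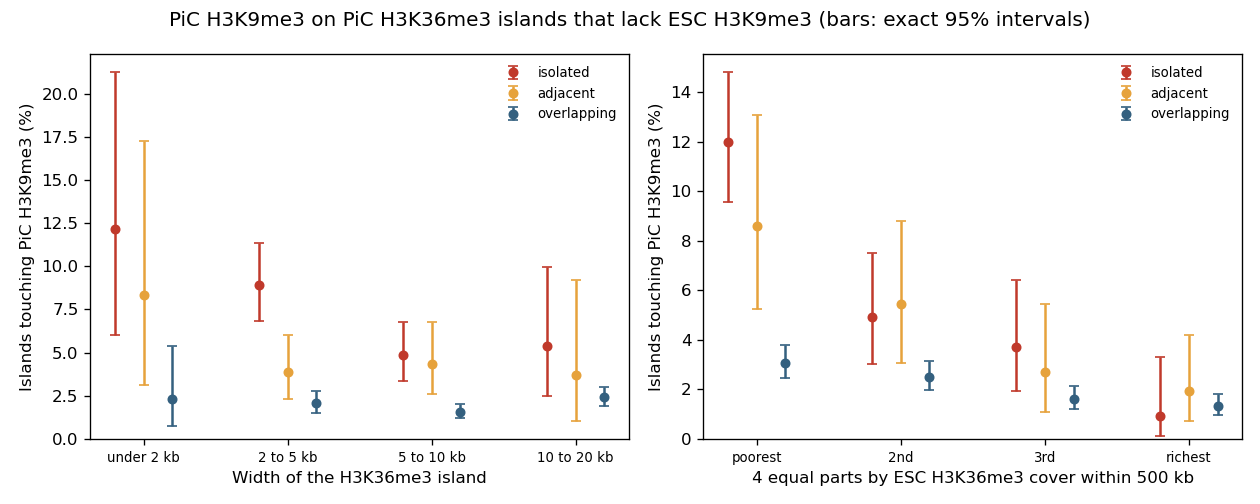
Share of PiC H3K36me3 islands touching PiC H3K9me3, in percent, by island width (left, islands of 20 kb or more left out because 22 isolated islands fell there) and by ESC H3K36me3 cover within 500 kb, in 4 equal parts (right). Points are shares and bars exact 95% binomial intervals; isolated islands stand highest in the poorest part at 12% and are at 0.922% in the richest.

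The share was higher among members far from ESC H3K36me3. It was 4.41% of members at gaps of 10 to 20 kb (2.64 to 6.88), 5.26% at 20 to 50 kb (3.53 to 7.52), 5.56% at 50 to 100 kb (3.14 to 8.998) and 7.82% at 100 to 200 kb (4.34 to 12.8). At 200 to 500 kb it was 13.9% (7.79 to 22.2), and beyond 500 kb 20 of 82 members touched PiC H3K9me3, or 24.4% (15.6 to 35.1). The first 3 classes did not differ beyond their intervals, and the last stood above all of them. The 82 members beyond 500 kb had no ESC H3K36me3 in their flanks, so all fell in the poorest part above. Distance was not separated here from region or width, and the other classes were not split by gap.

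**Figure D4:**
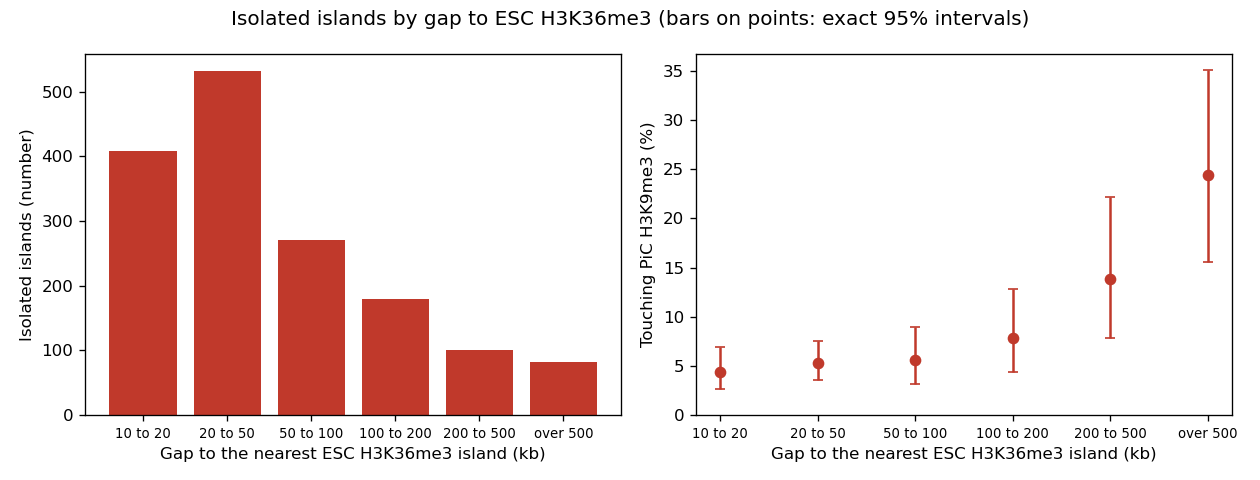
Number of isolated islands (left) and share of them touching PiC H3K9me3 in percent (right), by gap in kb to the nearest ESC H3K36me3 island; bars on the points are exact 95% binomial intervals. Numbers fall from 532 at 20 to 50 kb to 82 beyond 500 kb, where the share is highest at 24.4%.

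The 109 doubly marked members were narrower and denser in H3K36me3 tags than the other isolated islands. Their median width was 3.8 kb against 5.2 kb, and their median density 44 tags per kb against 36.8. Density was not compared at matched width. Among all isolated islands its median was 64.2 tags per kb under 2 kb and 33.0 from 5 to 10 kb. The H3K9me3 covered a median of 66.7% of the member, at least 50% of it in 77 cases and all of it in 32, and 292.4 kb in sum. They met 113 PiC H3K9me3 islands, whose median width of 3 kb and density of 34.7 tags per kb were close to the 3.2 kb and 33.3 tags per kb of all autosomal PiC H3K9me3 islands. Of these 113, 89 had no ESC H3K9me3 island within 10 kb, or 78.8%. Among all autosomal PiC H3K9me3 islands that share was 32.5%, but the rule, by leaving out overlap with ESC H3K9me3, raises it among the members. Both marks at these sites were thus in the PiC lists. Their distance of more than 10 kb from ESC H3K36me3 is set by the rule, and their distance from ESC H3K9me3 follows from it in part. The libraries give no view of single molecules, so whether both marks sat on the same nucleosomes cannot be told.

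The longest such overlap was on chromosome 7, where a 12.6 kb isolated island at 135620801 to 135633400 had PiC H3K9me3 on 11.6 kb, 92.1% of its length. It was sparse in H3K36me3, with 318 tags or 25.2 per kb, percentile 0.584 of the PiC list. The next were a 9 kb island on chromosome 18 at 9358201 to 9367200 with 314 tags and a 6.2 kb island on chromosome 3 at 7994401 to 8000600 with 375 tags, both wholly under PiC H3K9me3. The chromosome 3 island, at 60.5 tags per kb, was denser than the median of overlapping islands, so the 3 sites differed widely in H3K36me3 tag density.

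Isolated islands did not stand out for H3K9me3 near them but not on them. A PiC H3K9me3 island lay within 10 kb without contact for 6.74% of isolated islands (5.55 to 8.10), 8.34% of adjacent islands (6.75 to 10.2) and 7.77% of overlapping islands (7.29 to 8.27). Isolated islands had the lowest of these shares, with intervals that met, so their higher share above was one of contact. For ESC H3K9me3, where contact is left out by the rule, the shares were 9.41% (8.02 to 11.0), 11.7% (9.85 to 13.8) and 9.39% (8.87 to 9.93). Cover by PiC H3K9me3 within 500 kb had medians of 2.28% around isolated and 2.1% around overlapping islands, and cover by ESC H3K9me3 medians of 2% and 1.94%.

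Many isolated islands came in groups. A further isolated island lay within 50 kb of 814 members, or 51.8% (49.3 to 54.3), and within 20 kb of 695, or 44.2% (41.7 to 46.7). With H3K36me3 islands joined over 5 kb, the share within 50 kb was 35.1% (32.4 to 37.9). Such shares were not counted within the adjacent or overlapping islands. Joining members over gaps of up to 50 kb that held no ESC H3K36me3 island gave 290 groups with 800 members, and 772 members stayed alone, so the 1572 islands stood at 1062 separate places. There were 179 pairs and 111 groups of 3 or more, whose median span was 48.2 kb, with a median of 52.4% of the span under the mark. A member touching PiC H3K9me3 was found at 106 of the 1062 places, or 9.98% (8.24 to 11.9). The doubly marked members were therefore spread over nearly as many places as there were members.

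The longest group by span had 6 members over 128.2 kb of chromosome 16, from 23231801 to 23360000. Their widths were 3.6, 6, 9.2, 5, 9.2 and 4 kb in order, with 28 to 37.8 tags per kb, and 28.9% of the span was marked. PiC H3K9me3 covered 32.6% of the fifth island. The second also had 6 members, over 121.2 kb of chromosome 17 from 64970601 to 65091800, each of 3.2 to 7 kb with 22.9 to 38.8 tags per kb and none touching PiC H3K9me3. These 2 groups were chains of short, sparse islands.

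A denser group lay on chromosome 12, where 7 members from 100433401 to 100553600 filled 62.6% of 120.2 kb and held 2820 tags. It began with a 24.4 kb island of 44.7 tags per kb and ended with islands of 16.8 and 15.2 kb at 35.6 and 31.8 tags per kb, with 4 islands of 1.8 to 6.8 kb between. The group richest in members, named after its values were seen, had 11 on chromosome 6 from 31048601 to 31165600, which marked 61.4% of 117 kb with none touching PiC H3K9me3. In the 1 Mb window around it, from 31000001 to 32000000, H3K36me3 islands covered 5.42% in ESCs and 18.8% in PiCs.

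Windows of 1 Mb give the same picture on a wider scale. Members were found in 765 windows, and 53 of these held 5 or more, with 342 members in all or 21.8%. The most was 13, in the chromosome 6 window and in that on chromosome 10 from 69000001 to 70000000, where ESC H3K36me3 covered 7.96% and PiC H3K36me3 15.9%. On chromosome 17 from 30000001 to 31000000 there were 11 members, with cover of 14.9% in ESCs and 36.04% in PiCs, and on chromosome 3 from 148000001 to 149000000 there were 8, with cover of 0% and 7.06%. These windows were chosen for their number of members, which makes a higher cover in PiCs a matter of course.

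Isolated islands stood further from other H3K36me3 islands of their own list than the rest did. Another PiC island lay within 10 kb of 46.8% of them (44.3 to 49.3), against 93.2% of adjacent (91.5 to 94.6) and 77.7% of overlapping islands (76.9 to 78.4), and the median gap was 11.4 kb against 2.6 kb in both other classes. Being more than 10 kb from ESC H3K36me3 tends to place an island in sparser sequence, so this follows in part from the rule. The nearest PiC island that overlapped ESC H3K36me3 was a median of 39 kb away.

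Every autosome carried isolated islands. Their number ran from 29 on chromosome 19 to 114 on chromosome 10, and their share of the chromosome's PiC H3K36me3 islands from 6.28% (4.24 to 8.89) to 13.8% (11.5 to 16.3) on the same 2 chromosomes. The second highest share was 12.8% on chromosome 18 (10.00 to 16.0), and the second lowest 7.29% on chromosome 7 (5.81 to 9). Around the autosomal share of 9.61%, the intervals of chromosomes 10 and 18 lay above it, those of chromosomes 19, 7, 11 and 2 below it, and those of the other 13 included it. Per length, there were 0.458 members per Mb on chromosome 16 and 0.877 on chromosome 10. Median widths by chromosome lay between 4.2 and 6 kb and median densities between 33.2 and 40 tags per kb, a narrow range beside the spread among members. From 2.94% of members on chromosome 2 to 13.8% on chromosome 3 touched PiC H3K9me3.

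**Figure D5:**
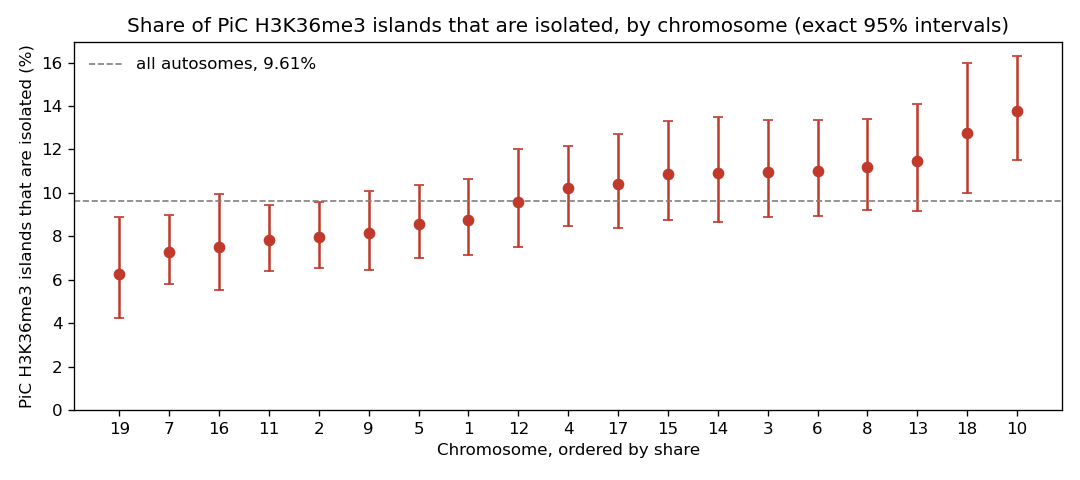
Share of PiC H3K36me3 islands that are isolated, in percent, for each of the 19 autosomes in order of the share, with exact 95% binomial intervals; the dashed line is the share over all autosomes. Shares run from 6.28% on chromosome 19 to 13.8% on chromosome 10.

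The mirror-image islands of untreated cells were fewer, and H3K9me3 of their own condition lay on them less often than on ESC islands overlapping a PiC island. Autosomal ESC H3K36me3 islands with no PiC island within 10 kb and no overlap with PiC H3K9me3 numbered 729 of 11971, or 6.09% (5.67 to 6.53), against 9.61% (9.16 to 10.1) in the PiC direction. The lists differed in length and in lowest tags, with 11971 ESC islands from 88 tags and 16363 PiC islands from 49. Each direction was also screened against another H3K9me3 list, and the part of these differences in the 2 shares was not tested. Their median width was 7.6 kb in a list with a median of 12.8 kb, and that of the PiC members was 5.2 kb in a list with a median of 8.8 kb, so both stood below their list. Of 11140 ESC islands free of PiC H3K9me3, 685 touched ESC H3K9me3, or 6.15%. The share was 1.37% of the 729 (10 islands, 0.660 to 2.51) and 6.71% of the 9976 overlapping a PiC island (669 islands, 6.22 to 7.21). The counts left for adjacent ESC islands give a share about as low as that of the 729. A low share was thus not particular to the isolated ESC islands. In PiCs the order of isolated and overlapping islands was the opposite, with 6.93% of isolated and 2.10% of overlapping islands. The autosomal H3K9me3 list was shorter in ESCs, with 17697 islands against 24422, and had fewer tags, and the part of list length in this contrast was not tested. The ESC shares were also not compared at matched width. ESC islands overlapping a PiC island had a median width of 14 kb, against 7.6 kb in the 729.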

How the data were processed

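Per the submitters' processing notes, islands were called with SICER, which joins enriched windows into broad regions, on build mm9. Not given in the sources used here: its version and thresholds, the aligner, how duplicate reads were handled and whether the input served as control. Every deposited list holds, without a header, the position of every island and a whole number, read as an unscaled count of tags by its layout. All edges lay on a 200 bp grid, so ends were taken as last bases counted from 0, and positions are given 1-based.

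Groups came from the sample titles. Distances, overlaps (1 bp or more) and cover were computed with scipy 1.17.1, pandas 2.3.3 and numpy 2.4.6 under Python 3.11.15, and drawn with matplotlib 3.10.9. The distance function was tested on islands planted over joined ESC H3K36me3 islands or at known gaps from them. Of 3642 planted islands, 0 were found wrong. Flanks reached 500 kb on each side and left out the island. Regions named are the 5 widest members, the 5 with most tags, the 5 densest of at least 2 kb, the 5 farthest from ESC H3K36me3, the 3 longest groups, the 3 longest overlaps with PiC H3K9me3 and 3 on each side of the 10 kb limit. The members and lists were chosen with earlier results of these data known. The split by region and width together, the counts of places and the values of broad and remote members were added after the data were seen. The gene table at hand was of another build and was not used.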

Additional observations from a re-analysis of the deposited data

How the results depend on the processing

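No paired analysis was possible because there is 1 library in a group, and for the same reason no replicate could be left out. Of 54 values under other settings, 31 stayed within the interval of the reported value (or, for the number, within 1.5 times) and 23 did not. With isolation over 50 kb the islands numbered 632, 3.86% of the list, with 36.3 tags per kb, 9.97% touching PiC H3K9me3 and 8.36% ESC H3K36me3 cover around them. With isolation over 2 kb the share of the list was 14.3% and the cover 16.05%. With the 50% of each list that had the most tags, the share was 13.4%, the median width 12.2 kb, the density 48.0 tags per kb, the share near another isolated island 35.3% and the share touching PiC H3K9me3 2.52% (1.68 to 3.62), against 1.15% (0.899 to 1.46) of overlapping islands. With H3K36me3 islands joined over 5 kb, the share of the list was 11.7%, the density 35.9 and the share near another isolated island 35.1%. With islands on ESC H3K9me3 kept, the share of the list was 12.8%, the density 38.3, the share touching PiC H3K9me3 24.6% and the cover 13.2%. Neighbours counted within 20 or 100 kb gave 44.2% and 59.1%, and flanks of 250 kb or 1 Mb gave cover of 15.4% and 12.3%. Isolated islands were narrower, sparser and more often on PiC H3K9me3 than overlapping ones under each setting that redefined the lists or the rule. The setting with the most tags says little on the members, since most islands it counted as isolated were not members. Precision is limited by tags, at 51 to 390 in 90% of members, and by the unknown depth of the libraries.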
